A study of Mus musculus with 4 samples.

Results

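The genes described here are 35 genes of fatty acid oxidation, ketone body metabolism and the response to PPAR-alpha, taken from a list of gene symbols and measured in whole kidneys of diabetic and control mice. Of these 35 genes, 32 had a named probe on the Illumina mouse bead arrays, among 15967 genes measured in all, and Ucp2, Slc25a20 and Acsl1 matched no named probe and were not analysed here. The mice came from the inbred C57BL/6 and FVB/N strains and were 8 weeks of age and of both sexes. In each strain 1 group had been diabetic for 21 days and 1 group was a control over 21 days that received saline injections; the sources used here do not say how diabetes was induced. Each of the 4 groups comprised 6 kidneys but has 1 column of values, called a library below, and whether a library is a pool or 1 kidney is not stated. With 1 library per group no difference has a replicate check, no test was run, and each difference compares 2 libraries rather than 2 conditions.

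Fatty acids are burned in mitochondria after they are activated to acyl-CoA and carried across the inner membrane on carnitine, and each turn of the beta-oxidation cycle shortens the chain through a dehydrogenase, a hydratase, a second dehydrogenase and a thiolase. Peroxisomes shorten very long chains, and ketone bodies, made mostly in liver, are turned back into acetyl-CoA in tissues such as kidney. PPAR-alpha is a nuclear receptor that binds fatty acids and, with RXR, switches on many of these genes. The proximal tubule of the kidney depends on fatty acid oxidation for its energy.

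PPAR-alpha binds DNA at a direct repeat of AGGTCA with 1 base between the copies. Windows from 250 bases before to 50 bases after an annotated start site, from RefSeq on the GRCm38.p6 build, were available for 30 of the 35 genes. On either strand, 6 of these 30 genes (20%) held the repeat with at most 2 mismatches, against 4.40% of all 27025 genes with such windows, and 1 held it with at most 1 mismatch. The 6 were Plin2, Fabp1, Ucp3, Creb3l3, Acot4 and Slc25a20. The matches of Plin2, Fabp1 and Ucp3 are shown because these 3 belong to the receptor's targets outside the oxidation enzymes, whose levels come first below; capitals mark the match, each line reads 5′ to 3′ on the gene's strand, and in Plin2 and Fabp1 the repeat runs on the opposite strand. Plin2 lies on the minus strand (chr4:86670252-86670304), Fabp1 on the plus strand (chr6:71199792-71199844) and Ucp3 on the plus strand (chr7:100472920-100472972). A match is a description of the letters and not a binding site, and a gene without one lacks only these letters in this window.

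Plin2: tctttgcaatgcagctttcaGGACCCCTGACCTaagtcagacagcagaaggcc
Fabp1: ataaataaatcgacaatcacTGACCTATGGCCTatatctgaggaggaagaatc
Ucp3: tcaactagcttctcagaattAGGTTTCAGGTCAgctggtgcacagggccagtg

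Levels are log2 intensities of the brightest probe of each gene, as deposited, and are compared between libraries and never between genes. The expression minimum was 5.49, the median of all probes, and 24 of the 32 genes lay at or above it by their mean over the 4 libraries, as did 9201 of the 15967 genes measured. A gene is called higher or lower where 2 libraries differed at least 1.5-fold, 0.58 on the log2 scale. The spread of a single probe's diabetes difference, estimated from 1159 genes with 2 probes, was 0.33 log2 (SD) in C57BL/6 and 0.47 in FVB/N. It is a technical spread between probes and no replicate error.

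The kidney label matched its markers, with 11 of 12 measured proximal tubule markers above the minimum and 0 of 5 muscle markers. Of 6 measured liver markers 4 were above the minimum, while the albumin gene Alb and Fgb lay below it in all 4 libraries. The summed linear intensity of the 4 expressed markers was 7868 in the diabetic and 5582 in the control library of C57BL/6, and 550 and 563 in FVB/N. Fat cells can be attached to a kidney, and brown fat is itself rich in fatty acid oxidation enzymes. Of 12 measured fat cell markers 7 were above the minimum, and their summed linear intensity was 2307 in the diabetic and 5391 in the control library of C57BL/6, and 1185 and 6211 in FVB/N. At 1.5-fold, 7 were lower than control in C57BL/6 and 5 in FVB/N, beside 6.35% and 13.9% of all expressed genes. Plin4 at -0.14 log2 and Cidec at 0.13 did not follow the sum in FVB/N. Ucp1, the uncoupling protein of brown fat, was at 10.87 in the C57BL/6 control and 10.20 in the FVB/N control library, at 9.36 in the C57BL/6 diabetic library and at 4.93, below the minimum, in the FVB/N diabetic library. The summed intensity of the proximal tubule markers was 98930 in the diabetic and 116510 in the control library of C57BL/6 and 68415 and 113770 in FVB/N. Kap, an androgen-regulated tubule gene, carried much of the FVB/N gap, and without it the sums were 70544 and 82877 in C57BL/6 and 60522 and 80331 in FVB/N. Of the 11 markers, 8 lay below control in the C57BL/6 diabetic library and 9 in that of FVB/N. Above control in C57BL/6 were Gatm at 1.09 log2, Slc5a12 at 0.43 and Acsm2 at 0.09. In FVB/N these were Slc5a12 at 0.71 and Slc5a2 at 0.31. Kap differed from control by -2.08 log2, and the male-enriched Cyp4a12a and Cyp2d9 by 2.55 and 1.64, in the FVB/N diabetic library. In C57BL/6 these differences were -0.24, 0.17 and 0.62. The Y-linked genes Eif2s3y, Kdm5d and Uty lay below the minimum by their means, and the share of males in each library is not given. Of 5 collecting duct markers 4 were above the minimum, and they went in both directions in FVB/N. The water channel genes Aqp2 and Aqp3 were 2.81 and 2.66 log2 higher in the FVB/N diabetic library, where C57BL/6 gave -0.24 and -0.31. Avpr2 and Slc4a1 were at -0.31 and -0.76 in FVB/N and at -0.12 and -0.21 in C57BL/6. The summed intensity of the 4 blood markers was 10681 in the diabetic and 7263 in the control library of C57BL/6 and 9532 and 16101 in FVB/N, opposite in direction. That of the 5 macrophage markers was 836 and 616 in C57BL/6 and 561 and 589 in FVB/N, where Adgre1 differed by -1.46 and C1qb by 1.07. The part of fat, tubule segments, liver-type transcripts, blood, macrophages or sex in the differences below was not tested. Fewer cells of a type cannot be told apart from less RNA per cell.

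In FVB/N the diabetic library was over 2-fold higher than control for Angptl4, Pdk4 and Plin2, the 3 expressed of 7 measured PPAR-alpha targets outside the oxidation enzymes. Several other targets of the receptor were not higher, with Ehhadh at -0.10, Acaa1b at -0.23, Acot3 at -0.07 and Acot4 at -0.53 log2. Acadm at 0.41 and Pex11a at 0.02 stayed short of 1.5-fold, and outside the list Cyp4a14 was higher, at 0.60. The enzymes of the mitochondrial cycle went in both directions. Of the 24 expressed genes, 5 were at least 1.5-fold higher in the FVB/N diabetic library, against 12.4% of all expressed genes, and 3 were lower, against 13.9%. The 5 were Angptl4, Pdk4, Plin2, Ppara and Etfdh, and the 3 were Hadh, Bdh1 and Decr1. In C57BL/6, 2 of the 24 were higher, Acadl and Angptl4, against 6.14% of expressed genes, and 1 was lower, Bdh1, against 6.35%. The median over the 24 genes was -0.10 log2 in C57BL/6 and -0.08 in FVB/N, beside 0.01 and -0.10 over all expressed genes. After loess centring on intensity the FVB/N shares of all expressed genes became 14.8% higher and 10.2% lower, with 5 and 3 of the 24 genes as before.

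Angptl4 encodes a secreted inhibitor of lipoprotein lipase. Its level was 8.70 in the FVB/N control library, 9.39 in the C57BL/6 control, 9.98 in the C57BL/6 diabetic and 10.18 in the FVB/N diabetic library. Both diabetic libraries thus lay above both controls, by 1.48 log2 (2.79-fold) in FVB/N and by 0.59 (1.51-fold) in C57BL/6. In FVB/N 0.87% of expressed genes were at least as far above control, and in C57BL/6 5.93%. A second, dimmer probe of Angptl4 gave 1.71 in FVB/N but -0.45 in C57BL/6, so that only the FVB/N difference had the same sign on both probes.

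Pdk4, the kinase that shuts pyruvate out of the citric acid cycle when fat is burned, was at 7.72 in the FVB/N control, 8.31 in the C57BL/6 control, 8.37 in the C57BL/6 diabetic and 9.01 in the FVB/N diabetic library. The C57BL/6 libraries lay together between those of FVB/N, with differences of 0.06 in C57BL/6 and 1.29 (2.45-fold) in FVB/N. Plin2, which coats lipid droplets, had the same order of strains, at 7.67 in the FVB/N control, 8.06 and 8.10 in the C57BL/6 diabetic and control and 8.91 in the FVB/N diabetic library. Its difference was 1.24 (2.36-fold) in FVB/N and -0.04 in C57BL/6. Only 1.78% of expressed genes were as far above control as Pdk4 in FVB/N, and 2.06% as far as Plin2. Both genes had a single probe.

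Ppara, the receptor gene itself, was dim, at 5.79 and 5.63 in the control and diabetic libraries of C57BL/6 and at 5.39 and 6.32 in those of FVB/N. The FVB/N difference was 0.92 and that in C57BL/6 -0.17. Since the FVB/N control value lay under the minimum, the 0.92 is uncertain in size. Creb3l3, a transcription factor that acts with PPAR-alpha in fasting liver, was below the minimum in all 4 libraries, from 4.72 to 4.93. Fgf21, the fasting hormone, and Fabp1 and Ucp3 were below it in all 4 libraries as well. Fgf21 ran from 4.76 to 4.97, and Fabp1, the liver fatty acid binding protein whose window holds the closest match above, from 4.75 to 4.94. Ucp3, a mitochondrial carrier of muscle and brown fat, ran from 5.15 to 5.45, and Vnn1, a pantetheinase, ran from 5.28 to 5.53 around the minimum, with a mean of 5.44 below it. A dim probe bounds only that probe's signal.

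**Figure D1:**
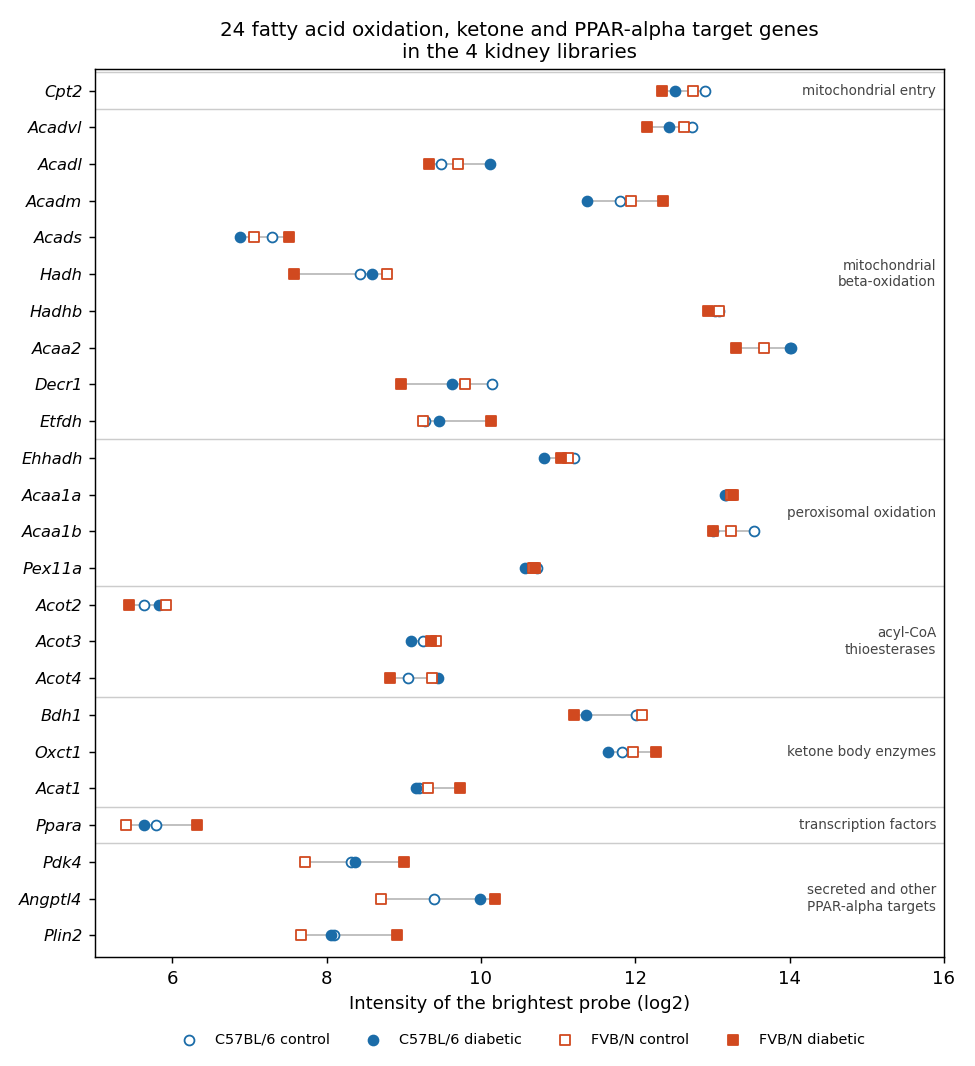
Intensity of the brightest probe (log2, horizontal axis) of the 24 expressed genes in the 4 libraries, with C57BL/6 as circles, FVB/N as squares, diabetic libraries filled and control libraries open, 1 point per library and no error bars because there are no replicates. For Ppara, Pdk4, Angptl4 and Plin2 the FVB/N control library is the lowest and the FVB/N diabetic library the highest, while for Hadh and Decr1 the FVB/N diabetic library is the lowest.

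Among the listed genes, entry into mitochondria could be followed on the carnitine palmitoyltransferases alone. Cpt2, which regenerates acyl-CoA inside the inner membrane, was at 12.91 and 12.75 in the C57BL/6 and FVB/N control libraries and at 12.52 and 12.34 in the diabetic libraries. Both diabetic libraries lay below both controls, by -0.39 and -0.40 log2, short of 1.5-fold, and a second probe gave -0.34 and -0.29. Cpt1a, an outer membrane enzyme that controls entry, ran from 4.72 to 4.82 on its 1 probe, below the minimum everywhere. Cpt1b, another form of that enzyme outside the list, was expressed. It was at 9.83 and 9.93 in the C57BL/6 control and diabetic libraries and at 9.55 and 9.31 in those of FVB/N. Its differences were 0.10 and -0.25, short of 1.5-fold.

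Of the 10 enzymes of mitochondrial beta-oxidation 9 were expressed, and in FVB/N 1 was higher and 2 were lower, with a median of -0.37 beside -0.10 over all expressed genes. These are 11.1% and 22.2% of the 9, beside 12.4% and 13.9% of all expressed genes, and with so few genes the shares say little. In C57BL/6 1 was higher and 0 were lower, beside 6.14% and 6.35%, with a median of -0.01 beside 0.01. The acyl-CoA dehydrogenases, which open the cycle for chains of different length, differed in direction. Acadvl, for very long chains, was at 12.74 and 12.44 in the C57BL/6 control and diabetic libraries and at 12.64 and 12.15 in those of FVB/N, lower by 0.30 and 0.49 and below 1.5-fold in both. Acadm, for medium chains, was at 11.80 and 11.37 in C57BL/6 and at 11.95 and 12.37 in FVB/N. Acads, for short chains, was at 7.29 and 6.87 and at 7.06 and 7.51. For Acadm and Acads the diabetic library was the lower one in C57BL/6, at -0.43 and -0.42, and the higher one in FVB/N, at 0.41 and 0.46, none reaching 1.5-fold. A second probe of Acadm gave -0.46 in C57BL/6 but -0.14 in FVB/N, against the direction there. Acadl, for long chains, had the opposite order, with 9.48 in the control and 10.11 in the diabetic library of C57BL/6 and 9.70 and 9.33 in FVB/N. Its C57BL/6 difference of 0.64 (1.56-fold) passed the threshold and the FVB/N difference of -0.37 did not.

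Hadh, the dehydrogenase for medium and short hydroxyacyl chains, was at 8.43 in the C57BL/6 control, 8.58 in the C57BL/6 diabetic, 8.78 in the FVB/N control and 7.57 in the FVB/N diabetic library. The FVB/N diabetic library stood apart, 1.21 log2 (2.31-fold) below its control, and 0.89% of expressed genes were as far below. Its dimmer probe went the other way in FVB/N, at 0.57. Decr1, the reductase that lets unsaturated chains into the cycle, was at 10.14 and 9.63 in the C57BL/6 control and diabetic libraries and at 9.79 and 8.96 in those of FVB/N. Both diabetic libraries were the lower ones of their strain, by -0.51 and -0.83 (1.78-fold), and only FVB/N passed 1.5-fold. Etfdh, which hands electrons of the dehydrogenases to ubiquinone, was at 9.27 and 9.46 in C57BL/6 and at 9.25 and 10.13 in FVB/N. The FVB/N diabetic library alone was high, by 0.88 (1.84-fold) over its control.

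The subunits of the trifunctional protein, which carries the last steps for long chains, differed little where they were measured. Hadhb lay between 12.94 and 13.09 in the 4 libraries, with differences of 0.05 and -0.15 (-0.35 and 0.05 on a dimmer probe), and Hadha was below the minimum, with a mean of 5.42. Acaa2, the mitochondrial thiolase, was at 14.02 and 14.01 in the C57BL/6 control and diabetic libraries and at 13.67 and 13.30 in those of FVB/N. Its difference of -0.37 in FVB/N was not shared by its 2 dimmer probes, at 1.15 and 1.03.

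On their brightest probes none of the 4 peroxisomal genes reached 1.5-fold in any of the 4 comparisons, in which 6.14% to 16.9% of expressed genes did so in 1 direction. Ehhadh, the bifunctional enzyme, ran from 10.81 to 11.20. The thiolase genes Acaa1a and Acaa1b, whose close similarity may let a probe read both, ran from 13.16 to 13.27 and from 13.01 to 13.53. Pex11a, which promotes peroxisome division, ran from 10.57 to 10.73. A dimmer probe of Pex11a was past 1.5-fold between the strains, higher in FVB/N by 0.78 in controls and by 1.04 in diabetics. On the brightest probes all 4 were below control in the C57BL/6 diabetic library, by -0.02 to -0.53.

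The acyl-CoA thioesterases, which release free fatty acids from acyl-CoA and are encoded by a cluster of related genes whose probes may share signal, reached 1.5-fold in neither diabetes comparison. Acot4, a peroxisomal enzyme for dicarboxylic chains, was at 9.05 and 9.44 in the C57BL/6 control and diabetic libraries and at 9.36 and 8.82 in those of FVB/N. Its differences, 0.39 and -0.53, had opposite signs. Acot3 ran from 9.09 to 9.42 with both differences below 0. Acot2, the mitochondrial member, was near the minimum and its probes disagreed in FVB/N, at -0.48 and 0.39, and Acot1, the cytosolic member, had a mean of 5.40, below it.

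Among the ketone body enzymes, Bdh1, which interconverts the ketone bodies hydroxybutyrate and acetoacetate, was called lower in both strains. Its level was 12.01 and 11.36 in the C57BL/6 control and diabetic libraries and 12.09 and 11.21 in those of FVB/N. Both diabetic libraries lay below both controls, by -0.66 (1.58-fold) and -0.88 (1.84-fold), and 4.52% and 4.09% of expressed genes were as far below. A dimmer probe was lower too, at -0.26 and -0.16, short of 1.5-fold. Oxct1, the transferase that commits ketone bodies to use in the tissue, was at 11.83 and 11.65 in C57BL/6 and at 11.97 and 12.27 in FVB/N. Acat1, the thiolase of the last step, was at 9.20 and 9.15 in C57BL/6 and at 9.31 and 9.73 in FVB/N. Neither reached 1.5-fold, with differences of -0.18 and 0.30 for Oxct1 and -0.04 and 0.42 for Acat1. The listed ketone enzymes thus did not share a direction in FVB/N.

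**Figure D2:**
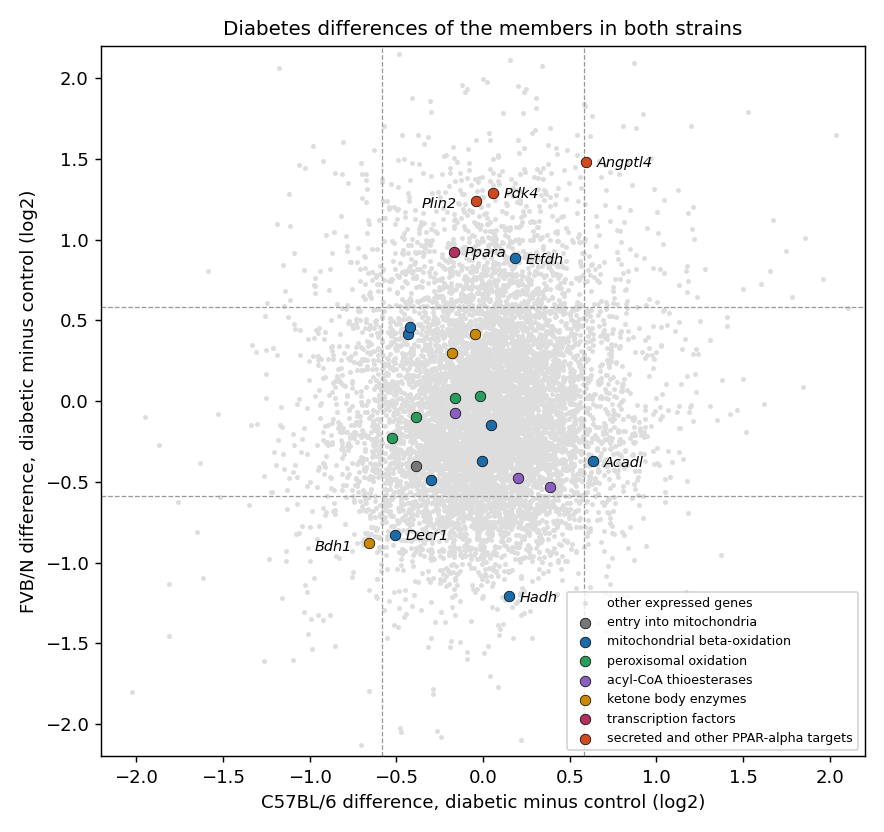
Difference of diabetic minus control (log2) in C57BL/6 (horizontal axis) and FVB/N (vertical axis) for the 24 expressed genes, coloured by role, over all other expressed genes in grey (genes beyond the axes are not drawn), with dashed lines at 1.5-fold. Angptl4, Pdk4, Plin2, Ppara and Etfdh lie above the upper line, and Bdh1 lies beyond the lower line in both strains.

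Probes of the same gene often disagreed in FVB/N, which limits the single differences above. Of 10 of these genes with several probes above the minimum, the probes had 1 sign for 6 in C57BL/6 and for 4 in FVB/N. The 4 in FVB/N were Cpt2, Pex11a, Bdh1 and Angptl4. In 9 of the 10 the second brightest probe had the higher diabetes difference in FVB/N, against 3 of the 10 in C57BL/6. Acadl was an example, where the brighter probe gave -0.37 in FVB/N and the dimmer one 0.97. Over the 1159 genes with 2 probes the dimmer probe had the higher diabetes difference in 64.1% in FVB/N and in 50.6% in C57BL/6, with a median gap of 0.20 log2 in FVB/N and 0.01 in C57BL/6. The gap was 0.19 between the diabetic libraries of the strains and 0.00 between their controls, so it moved with the FVB/N diabetic library. Pdk4, Plin2, Ppara, Etfdh and Decr1 had 1 probe each, so their differences have no second reading.

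**Figure D3:**
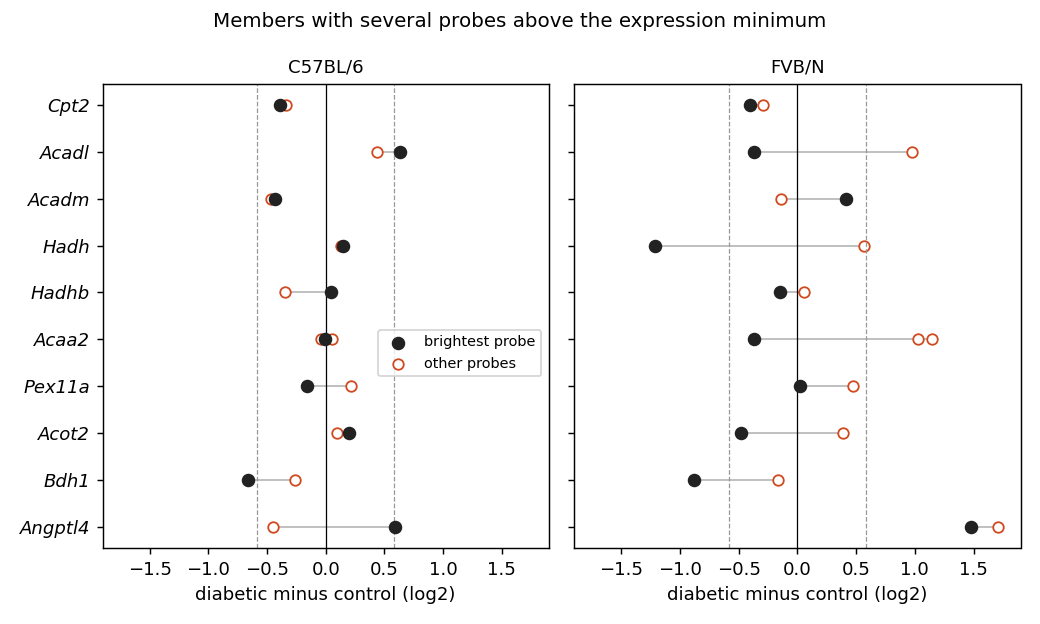
Difference of diabetic minus control (log2, horizontal axes) for each probe above the expression minimum of the 10 genes with several such probes, in C57BL/6 (left) and FVB/N (right), with the brightest probe filled, other probes open and dashed lines at 1.5-fold. In FVB/N the probes of Hadh span -1.21 to 0.57 and those of Acaa2 -0.37 to 1.15, while both probes of Angptl4 lie above 1.4.

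The strain comparisons reuse the same 4 libraries, so their values are not independent of the diabetes differences. Between the control libraries, 0 of the 24 genes were at least 1.5-fold higher in FVB/N, against 6.29% of all expressed genes, and 2 were lower, Angptl4 at -0.69 and Pdk4 at -0.60, against 6.75%. Plin2 and Ppara followed at -0.43 and -0.40, short of the threshold. Of the 5 genes called higher in the FVB/N diabetic library, Etfdh alone had closely matched controls, at -0.02. Between the diabetic libraries, 7 of the 24 were higher in FVB/N, against 14.7% of expressed genes, and 5 were lower, against 16.9%. The 7 were Acadm at 0.996, Plin2 at 0.86, Ppara at 0.69, Etfdh at 0.68, Acads at 0.64, Pdk4 at 0.63 and Oxct1 at 0.61, and Acat1 lay just outside at 0.58. The 5 were Hadh at -1.01, Acadl at -0.79, Acaa2 at -0.71, Decr1 at -0.67 and Acot4 at -0.62. The direction turned on the other probes of 3 of these 5, at 0.65 for Hadh, 0.50 for Acadl and 0.53 and 0.91 for Acaa2, while Decr1 and Acot4 had 1 probe. The second probe of Acadm, at 0.68, kept its direction. Angptl4 differed by 0.20 between the diabetic libraries on its brighter probe and by 1.23 on its dimmer one.

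Other genes of the same pathways came from a list of 83 symbols, of which 71 were measured and 58 expressed. In C57BL/6, 0 of the 58 were higher and 6 lower, and in FVB/N 9 were higher and 6 lower, with a median of -0.03 in each strain. Of the 58 these are 0% and 10.3% in C57BL/6, beside 6.14% and 6.35% of all expressed genes, and 15.5% and 10.3% in FVB/N, beside 12.4% and 13.9%, so the FVB/N shares lay near those of all genes. The 5 with the largest difference in C57BL/6 were all lower. They were Aacs, which activates acetoacetate for lipid synthesis, at -1.13, the coactivator gene Ppargc1b at -1.07, the fat droplet gene Cidec at -1.003, the hormone-sensitive lipase Lipe at -0.66 and the fatty acid transporter Slc27a2 at -0.65. Cidec is itself 1 of the 7 fat cell markers summed above. Without it their sum was 2267 in the C57BL/6 diabetic and 5312 in the control library, and the part of fat cells in the difference of Lipe was not tested.

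In FVB/N the 5 largest were Cyp4a12a at 2.55, the peroxisomal thioesterase Acot8 at 1.38, the monocarboxylate transporter Slc16a6 at -1.37, the acyl-CoA dehydrogenase Acad12 at -1.18 and the transcription factor Klf15, which governs fasting metabolism, at 1.18. Cyp4a12a encodes a fatty acid omega-hydroxylase and went from 5.88 in the control to 8.43 in the diabetic library, beside 6.29 and 6.46 in C57BL/6. Among the 17 expressed genes of the list's PPAR targets and regulators, 4 (23.5%) were higher and 0 lower in FVB/N, beside 12.4% and 13.9% of all expressed genes, with a median of 0.13. Cyp4a12a is 1 of these 4 and also a male-enriched marker named above, and the part of sex in its difference was not tested. Of the classical kidney targets, Cyp4a14 was higher at 0.60, from 12.93 to 13.52, and Cyp4a10 was not, at 0.29. In C57BL/6 0 of the 17 were higher and 3 (17.6%) lower, beside 6.14% and 6.35%. Among 15 other peroxisomal genes 3 were higher and 3 lower in FVB/N, 20% each way, and among 21 other mitochondrial genes 2 were higher and 2 lower, 9.52% each way, again beside 12.4% and 13.9%. Among 5 other ketone genes 0 were higher and 1 (20%) was lower in each strain, beside 6.35% lower in C57BL/6 and 13.9% in FVB/N. All 5 lay below 0 in FVB/N, with a median of -0.36 beside -0.10 over all expressed genes. In C57BL/6 4 of the 5 did.

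**Figure D4:**
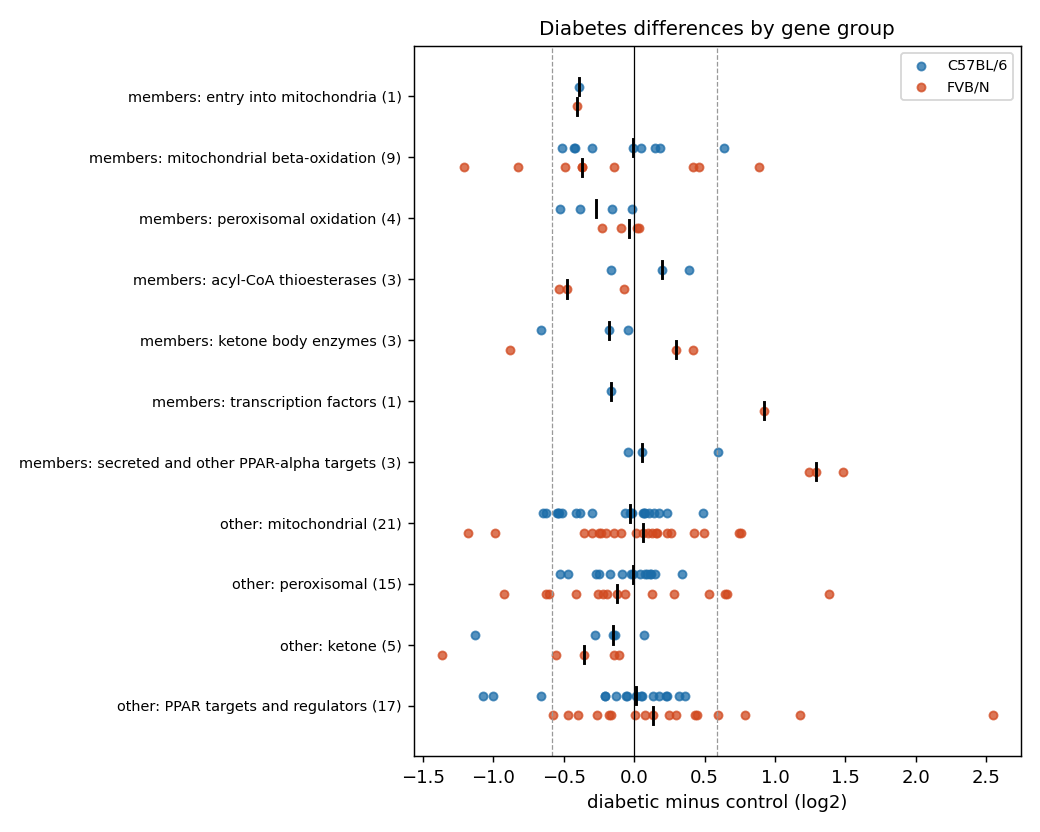
Difference of diabetic minus control (log2, horizontal axis) in C57BL/6 (blue) and FVB/N (orange) for each expressed gene, by role among the 24 genes and by group among the 58 other pathway genes, with the number of genes in brackets, black bars at the medians and dashed lines at 1.5-fold. The 3 secreted and other PPAR-alpha targets sit between 1.24 and 1.48 in FVB/N, and the 9 mitochondrial beta-oxidation enzymes spread from -1.21 to 0.88.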

How the data were processed

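Kidney RNA was labelled as biotinylated cRNA and stained with streptavidin-Cy3, per the labels' protocols, for Illumina bead arrays. The deposited values were read as log2 intensities from their range, 4.45 to 15.84. The sorted libraries differed by at most 0.42 at any rank; the sources used here do not give the authors' normalization, background correction or detection calls. Of 24613 probes, 20984 had 1 gene symbol in the platform annotation, 1 had several and 3628 had none; of 20968 found by gene identifier in the RefSeq table, 0 had another symbol.

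Each gene was represented by its brightest probe, judged on the mean of the 4 libraries. Differences of log2 values were taken, and no test was run. All measured list members were described; of other pathway genes, the 5 largest expressed differences per strain were named, with others chosen after their values were seen. The members and lists were chosen with earlier results of these data known. Code was tested on simulated data. Python 3.11.15, pandas 2.3.3 and statsmodels 0.14.6 were used. The alternatives were quantile normalization, median centring, loess centring (span 0.3), no filter, a filter at percentile 75 of all probes, a floor at the minimum, and the mean of all probes of a gene.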

Additional observations from a re-analysis of the deposited data

Results flagged for a closer look

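In 4 of the 24 expressed genes the diabetes differences of the strains had opposite signs and were 1 log2 unit or more apart, which is 16.7% beside 10.1% of all expressed genes. The difference between the strains was not tested, since each group has 1 library. FVB/N minus C57BL/6, it was 1.28 for Plin2, with -0.04 in C57BL/6 and 1.24 in FVB/N. For Ppara it was 1.09, with -0.17 and 0.92. It was -1.36 for Hadh, with 0.15 and -1.21, and -1.01 for Acadl, with 0.64 and -0.37. The C57BL/6 differences of Plin2, Ppara and Hadh lie within the probe spread of 0.33 of that strain. The FVB/N difference of Acadl lies within the FVB/N probe spread of 0.47. The dimmer probe of Hadh gave 0.13 and 0.57 and that of Acadl 0.44 and 0.97, so in neither did it show opposite signs.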

How the results depend on the processing

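Of 25 differences past 1.5-fold among the 24 genes and 4 comparisons, 23 stayed past it under loess centring and 17 with the mean of all probes. All 25 stayed under quantile normalization, median centring and the floor. The library medians were already 5.48 or 5.49, so median centring could move little. Dropping or tightening the filter chooses genes and changes no difference. The 25 kept with no filter and the 22 left under the stricter filter were therefore fixed in advance. With loess centring 1 gene instead of 2 was higher in C57BL/6. With the mean of all probes 0 were higher and 0 lower in C57BL/6, 1 instead of 3 was lower in FVB/N, and 2 instead of 5 were lower in FVB/N between the diabetic libraries. That setting turned Acaa2 between the diabetic libraries from -0.71 to 0.24, moved Hadh in FVB/N to -0.32 and Angptl4 in C57BL/6 to 0.07, and turned the FVB/N median of the 24 genes from -0.08 to 0.08. Acaa2 in the FVB/N diabetes comparison turned as well, from -0.37 to a value past 1.5-fold above control. Dimmer probes of the opposite sign entered the means of Acaa2, of Hadh in FVB/N and of Angptl4 in C57BL/6. The other calls lost in the diabetes comparisons had dimmer probes of the same sign and smaller size, with Acadl at 0.54 in C57BL/6 and Bdh1 at -0.46 in C57BL/6 and -0.52 in FVB/N. The other counts stayed within 1.5 times. Every value rests on 1 array per group, and differences near the minimum of 5.49, as for Ppara and Acot2, are the least certain in size.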

Other observations

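Among the 24 expressed genes the C57BL/6 control library was the lowest for 0 and the highest for 7, beside 19.9% and 21.2% of all expressed genes. The FVB/N diabetic library alone was the highest for 10 and the lowest for another 10, so it alone held an extreme for 20 of the 24. Both diabetic libraries tied as the lowest for Acaa1b, at 13.01, and this gene is not among the 20. Over all expressed genes the FVB/N diabetic library was the highest for 28.1% and the lowest for 39.7%.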
